A study of Mus musculus with 4 samples.

Results

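Chemokine receptors are membrane-spanning proteins that couple to inhibitory G proteins and steer leukocytes along gradients of small secreted chemokines. In bone marrow, stromal Cxcl12 holds Cxcr4-bearing cells in place, Ccr2 lets monocytes leave for the blood, and Ccr1 and Cx3cr1 serve the traffic of monocytes and osteoclast precursors to bone surfaces. The 7 genes described here, of 53801 listed, were chosen by name as receptors for the homing of precursors: Ccr1, Ccr2, Ccr7, Cx3cr1, Cxcr2, Cxcr4 and the atypical receptor Ccrl2. Their identifiers are ENSMUSG00000025804 (Ccr1), ENSMUSG00000049103 (Ccr2), ENSMUSG00000037944 (Ccr7), ENSMUSG00000052336 (Cx3cr1), ENSMUSG00000026180 (Cxcr2), ENSMUSG00000045382 (Cxcr4) and ENSMUSG00000043953 (Ccrl2). All 7 are protein-coding, and all 7 had enough counts to be tested.

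The cells were osteoclast precursors, of the myeloid lineage from which osteoclasts form, and came from 2 wild-type C57BL/6 mice. The labels number the cells 1 and 2, read here as 1 mouse each and called preparation 1 and preparation 2. Both received either PBS or DKK1 at 200 ng/ml for 3 h, which gave 4 libraries in 2 pairs. DKK1 is a secreted inhibitor of canonical Wnt signalling, and PBS is the saline control that carries no DKK1. The sources used here do not give the tissue of origin, the culture before treatment, or the age and sex of the mice. No preparation was repeated, so the spread between the 2 pairs is the only replicate error.

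The libraries held from 41163663 to 53537927 counts, and 17462 genes were tested. Libraries parted by preparation far more than by treatment: 33.9% of tested genes were called between preparation 2 and 1, against 0.0515% between DKK1 and PBS. Csf1r, the M-CSF receptor that marks the monocyte and osteoclast lineage, stood at 1969 to 2593 CPM (counts scaled to library size), and Lyz2, the lysozyme of myeloid cells, at 14290 to 24910 CPM. The 10 osteoclast markers summed to 1304 and 1240 CPM (PBS, then DKK1) in preparation 1 and 1145 and 1055 CPM in preparation 2. Acp5 had 329 to 476 CPM, Itgb3 252 to 331 CPM and Nfatc1 40.2 to 50.8 CPM. Ctsk had 4.11 to 29.1 CPM, and Dcstamp and Ocstamp had at most 1.7 and 1.52 CPM. Calcr, the calcitonin receptor of mature osteoclasts, was at 0 in every library. Of the 8 tested, edgeR called 0 with DKK1, and 1 had an unadjusted p under 0.05 (4.47% of all genes). Markers of other lineages were present too, and their values are given beside those of the receptors. In bulk RNA, fewer cells of a type and less RNA per cell cannot be told apart.

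The sequences upstream of 3 receptor genes are shown because these receptors had the highest levels per length and differed between the preparations in opposite directions, Cxcr4 being higher and Ccr1 and Cxcr2 lower in preparation 2. Each run is the 250 bases before the start site in RefSeq (GRCm38.p6), read 5′ to 3′ on the gene's strand: Cxcr4 at chr1:128592300-128592549 (minus strand), Ccr1 at chr9:123968693-123968942 (minus strand) and Cxcr2 at chr1:74153744-74153993 (plus strand). Capitals mark matches to the motifs listed after the sequences.
Cxcr4: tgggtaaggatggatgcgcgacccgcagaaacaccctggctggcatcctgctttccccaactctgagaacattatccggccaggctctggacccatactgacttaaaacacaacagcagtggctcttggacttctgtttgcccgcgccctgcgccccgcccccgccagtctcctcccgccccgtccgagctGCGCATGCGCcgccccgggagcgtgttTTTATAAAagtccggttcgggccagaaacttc
Ccr1: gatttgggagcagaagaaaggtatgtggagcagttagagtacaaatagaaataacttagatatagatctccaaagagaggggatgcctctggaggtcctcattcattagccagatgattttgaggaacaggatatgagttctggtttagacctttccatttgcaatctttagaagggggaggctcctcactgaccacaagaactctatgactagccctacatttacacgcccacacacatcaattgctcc
Cxcr2: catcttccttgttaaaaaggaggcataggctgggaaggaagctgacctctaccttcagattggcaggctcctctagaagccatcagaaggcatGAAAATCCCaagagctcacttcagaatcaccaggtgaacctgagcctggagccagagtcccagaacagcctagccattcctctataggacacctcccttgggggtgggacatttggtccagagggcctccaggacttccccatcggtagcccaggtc

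Entries were found for 6 of the 7 receptors. The motifs, sought on both strands in the 250-base windows, were TATAAA (the TATA box), CTTTGA and CTTTGT (cores of TCF/LEF sites, through which Wnt signalling acts), GCGCATGCG (NRF1), GAGGAAGT (PU.1 and other ETS factors), GGGANTTTC (part of an NF-kB site) and GAAANNGAA (part of an interferon response element). Cxcr4 held the NRF1 letters, as overlapping matches on both strands that begin 59 and 58 bases before the start, and these letters are in 1.5% of 32536 windows. It also held TATAAA as overlapping matches that begin 32 and 30 bases before the start, a motif in 12.3% of windows. Cxcr2 held the NF-kB letters 157 bases before its start (0.9% of windows). Ccr2 held CTTTGT 140 bases and GAAANNGAA 86 bases before its RefSeq start (16.5% and 7.1% of windows), but 233 of the 250 bases of that window are exon of Ccr2 in GENCODE M21. All 250 bases of the Cx3cr1 window are likewise exon of Cx3cr1, as are up to 140 bases in the windows of Ccrl2, while the windows of Cxcr4 and Ccr1 hold 0 exon bases and that of Cxcr2 holds 5. CTTTGA (13.9% of windows) and GAGGAAGT (2.5%) matched none of the 6, and the windows of Ccr1, Cx3cr1 and Ccrl2 matched no motif. A match describes letters and is not evidence of binding.

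Per length, Cxcr4 was the most abundant of the 7 receptors in every library. Its level in the authors' FPKM, which scale counts to gene length and library size, was 39.1 (PBS) and 37.8 (DKK1) in preparation 1 and 44.2 and 45.5 in preparation 2, a mean of 41.6 ± 3.77 (SD, n = 4 libraries). Ccr1 (15.7 ± 3.21), Cxcr2 (15.0 ± 3.29) and Ccrl2 (12.9 ± 4.09) followed, on the same FPKM scale and over the same 4 libraries. Their ranges overlapped one another, so these 3 did not differ beyond their spread. Ccr2 came next at 8.88 ± 2.78 FPKM, with a range of 5.85 to 11.9 that overlapped those of Cxcr2 and Ccrl2. Cx3cr1 (3.65 ± 0.966 FPKM) and Ccr7 (3.64 ± 1.44 FPKM) were lowest, overlapped each other, and reached 4.91 and 5.01 FPKM at most, under the lowest value of Ccr2. The order differed between the preparations: Ccrl2 held the fifth place in both libraries of preparation 1 and the second in both of preparation 2.

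**Figure D1:**
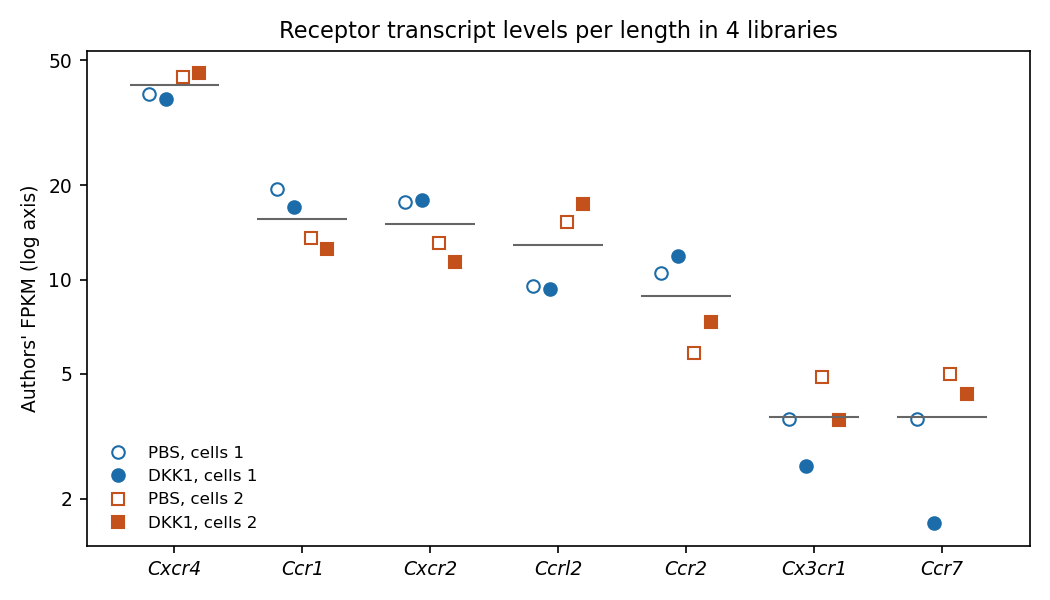
Level of each receptor in the authors' FPKM (log axis) in the 4 libraries, with open symbols for PBS, filled symbols for DKK1, circles for preparation 1, squares for preparation 2 and a line at the mean. Cxcr4 lies above all others at 37.8 to 45.5, and in each receptor the circles and the squares do not overlap, except for Cx3cr1, where PBS of preparation 1 (3.58) lies just above DKK1 of preparation 2 (3.57).

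The receptor Cmklr1 gave context for these levels. Cmklr1, the signalling receptor for chemerin, had a mean of 67.5 ± 3.65 FPKM (SD, n = 4 libraries) and was above Cxcr4 in every library.

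The comparison of DKK1 with PBS asks whether receptor transcripts change within 3 h of exposure to the Wnt inhibitor. None of the 7 receptors passed edgeR's quasi-likelihood test at an adjusted p under 0.05 (0 of 7; 0.0515% of all genes tested). DESeq2 and limma-voom with the same terms also called 0 of 7. At an unadjusted p under 0.05, edgeR found 2 of 7, Cx3cr1 and Ccr2, where 4.47% of all genes had one, limma-voom 2 and DESeq2 1. The log2 change was negative for 5 receptors and positive for 2, with a median of -0.09 against -0.0015 over all genes tested. DKK1 and PBS libraries overlapped in CPM for all 7, and the share of all genes with such an overlap was not counted. In 4 of 7 receptors both pairs moved the same way, a share to be read against 51.7% of all genes.

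Cx3cr1, the receptor of the membrane-bound chemokine Cx3cl1 on monocytes and their descendants, had the smallest p. It had 955 counts with PBS and 680 with DKK1 in preparation 1, and 1008 and 823 in preparation 2. In CPM these are 16.9 and 11.98, then 26.1 and 18.9. The DKK1 library was the lower one in each pair, while DKK1 of preparation 2 lay above PBS of preparation 1. The log2 difference was -0.50 in preparation 1 and -0.46 in preparation 2. The fitted change was -0.48 (95% CI -0.76 to -0.20; edgeR unadjusted p = 0.00606, adjusted p = 0.868), so it did not pass the test over all genes. The antisense model Gm33858 shares 78 exon bases with Cx3cr1, which holds 93.9% of their summed counts, and no label says whether the libraries keep strand.

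Ccr2, the receptor for Ccl2 and Ccl7 that releases monocytes from marrow, had values in the other direction. Counts were 4186 with PBS and 4757 with DKK1 in preparation 1, and 1803 and 2527 in preparation 2, or 74.1, 83.8, 46.6 and 58.1 CPM. The DKK1 library was the higher one in each pair, and both libraries of preparation 1 exceeded both of preparation 2. The log2 differences of the pairs were 0.18 and 0.32, and the fitted change was 0.24 (95% CI 0.05 to 0.44; edgeR unadjusted p = 0.0227, adjusted p = 0.959).

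Ccr7 directs dendritic cells and lymphocytes to lymph nodes through Ccl19 and Ccl21. It had the widest gap between the pairs: 419 counts with PBS and 196 with DKK1 in preparation 1, but 452 and 437 in preparation 2 (7.42, 3.45, 11.7 and 10.1 CPM). The 1 low library was DKK1 of preparation 1. The log2 difference was -1.09 in preparation 1 and -0.22 in preparation 2, and the fitted change of -0.59 had a 95% CI of -1.20 to 0.01 (edgeR adjusted p = 0.959). Ccl19 and Ccl21a, its ligands, had 0 counts in all 4 libraries.

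B cells can express Ccr7. The summed level of the 10 B cell markers was 408 CPM with PBS and 274 CPM with DKK1 in preparation 1, and 165 and 151 CPM in preparation 2. Of the 10, 0 passed edgeR's test with DKK1 (0 by DESeq2 and limma-voom), 6 had an unadjusted p under 0.05 (4.47% of all genes), and the median log2 change was -0.39 against -0.0015 over all genes. The signs were mixed: 8 of the 10 had a negative log2 change, while Igll1, with 1 of those 6 p-values, had 25 and 92 counts in preparation 1 (log2 1.86), and Ebf1 had a log2 change of 0.07. Cd79a, which signals for the B cell's antigen receptor, had 49.9 and 32.0 CPM in preparation 1 and 13.01 and 10.5 CPM in preparation 2, and the IgM heavy chain Ighm had 201, 143, 134 and 121 CPM in the same order. Vpreb1 and Igll1, of the pre-B cell receptor, were at 0 in both libraries of preparation 2. The dendritic list (10 genes) summed to 1028, 839, 4251 and 4026 CPM and the T and NK list (10 genes) to 59.9, 57.5, 92.8 and 88.3 CPM. Most of the dendritic sums came from 2 genes, Cd74 (763, 606, 3099 and 2909 CPM) and the MHC class II gene H2-Ab1 (169, 142, 1040 and 1007 CPM). In the T and NK list, Cd3d, Cd3e and Cd3g had at most 0.874 CPM, so its sums came mostly from other genes of the list. The part of these lists in the Ccr7 values was not tested.

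**Figure D2:**
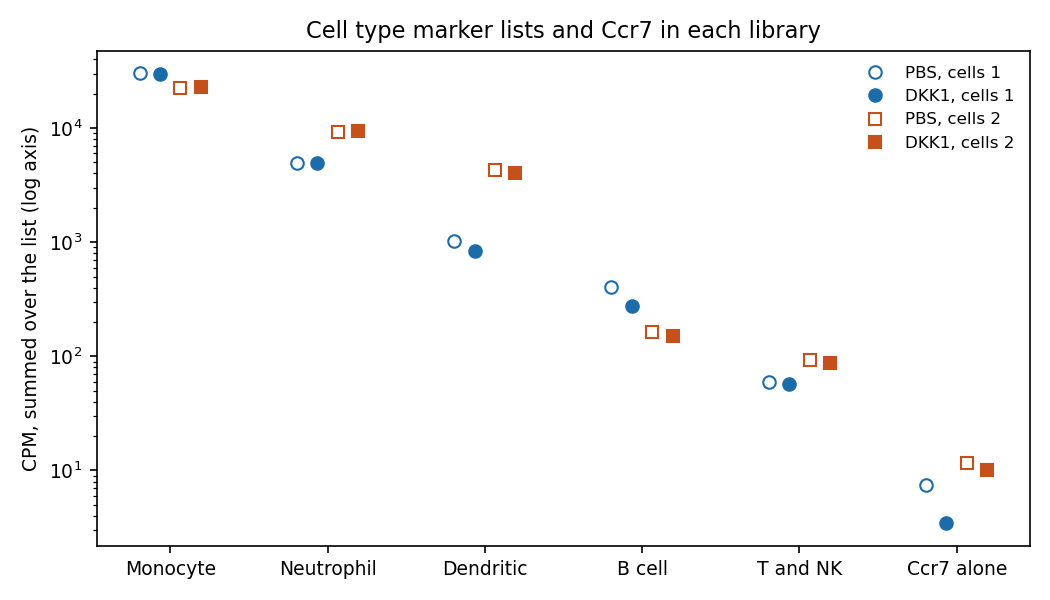
Summed CPM (log axis) of 5 lists of cell type markers and the CPM of Ccr7 alone in each library, with open symbols for PBS, filled symbols for DKK1, circles for preparation 1 and squares for preparation 2. The B cell list goes from 408 to 274 CPM with DKK1 in preparation 1 and from 165 to 151 CPM in preparation 2, and Ccr7 goes from 7.42 to 3.45 and from 11.7 to 10.1 CPM. Most of the monocyte sum is Lyz2, and most of the dendritic sum is Cd74 and H2-Ab1.

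The remaining 4 receptors had 95% intervals that held 0. Ccr1, the receptor of Ccl3, Ccl5 and Ccl9 in the osteoclast lineage, had 3267 and 2848 counts in preparation 1 and 1759 and 1805 in preparation 2 (57.8, 50.2, 45.5 and 41.5 CPM), a log2 change of -0.17 (95% CI -0.37 to 0.03; edgeR adjusted p = 0.959). Scaled to library size, its DKK1 library was the lower one in each pair, by -0.20 and -0.13 on the log2 scale. Cxcr2, the neutrophil receptor of Cxcl1, Cxcl2 and Ppbp, had 56.5 and 57.1 CPM in preparation 1 and 47.1 and 40.9 CPM in preparation 2, a log2 change of -0.09 (95% CI -0.31 to 0.14). Cxcr4, the receptor of Cxcl12, was nearly level at 74.0 and 71.3 CPM and at 94.1 and 96.7 CPM, and its log2 change of -0.01 had a 95% CI of -0.18 to 0.17. Ccrl2 binds chemerin and presents it without signalling itself. It had 26.0 and 25.3 CPM in preparation 1 and 46.9 and 53.2 CPM in preparation 2 (log2 change 0.08, 95% CI -0.16 to 0.32). For Cxcr4, the interval leaves room for a change of at most 0.18 in either direction, the narrowest of the 7.

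**Figure D3:**
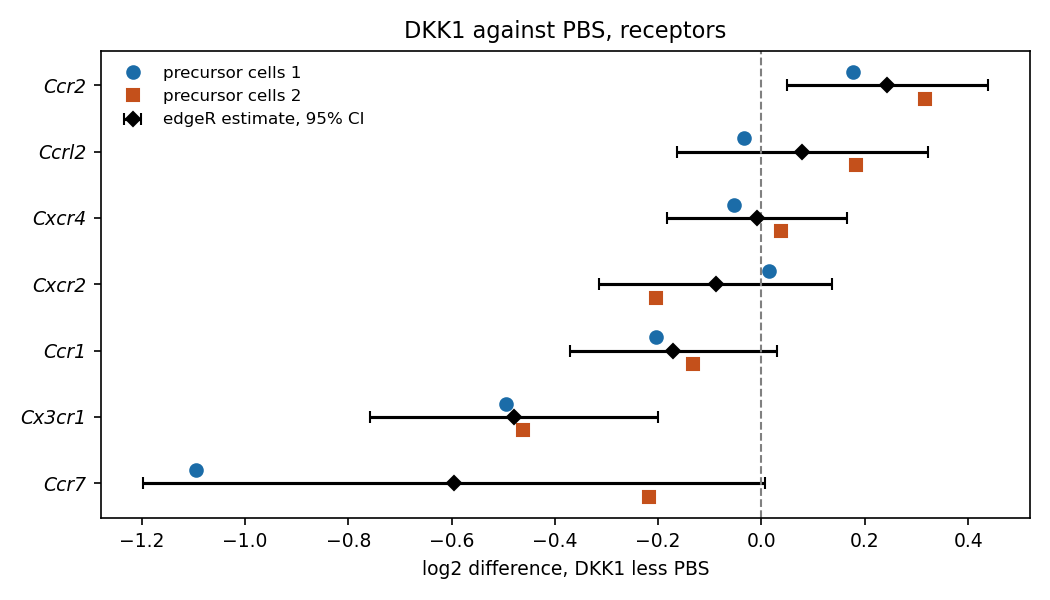
Log2 difference of DKK1 less PBS for the 7 receptors, with the edgeR estimate and its 95% CI (diamond and bar) and the value of each pair (circle for preparation 1, square for preparation 2). Cx3cr1 at -0.48 and Ccr2 at 0.24 have intervals that leave out 0 before adjustment, their pairs lie close together, and the pairs of Ccr7 lie apart at -1.09 and -0.22.

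The authors compared the libraries of each pair 1 against 1. In the authors' deposited table for preparation 1, Ccr7 was the 1 receptor called (log2 ratio -1.06, FDR 7.51e-14), where 0.921% of the genes listed were called. In the authors' deposited table for preparation 2, 0 of the 7 were called (0.987% of genes), and Ccr7 had a log2 ratio of -0.21 with an FDR of 0.205. Cx3cr1 had log2 ratios of -0.48 and -0.45 with FDR values of 8.32e-06 and 2.15e-05 in the authors' deposited tables, without a call in either. Every gene called in the authors' deposited tables has an absolute log2 ratio above 1. Ccr2 had ratios of 0.18 (FDR 0.0637) and 0.32 (FDR 0.000809) in the authors' deposited tables. Those p-values compare 2 libraries and not the treatments.

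The design also sets the precursor cells of 1 mouse against those of the other. In this comparison all 7 receptors passed edgeR's test (7 of 7, against 33.9% of all genes tested). That share covers genes of every abundance, and the share among genes as abundant as the receptors was not counted. Ccr7, Ccrl2, Cx3cr1 and Cxcr4 were higher in preparation 2 (4 of 7, against 17.9% of all genes), and Ccr2, Cxcr2 and Ccr1 were lower (3 of 7, against 15.9%). In each of the 7, the CPM of the 2 libraries of preparation 1 did not overlap those of preparation 2. The share of all genes without such an overlap was not counted, so this is not shown to be particular to the receptors. With 1 mouse per preparation, the test compares these 2 preparations and not mice in general, and what sets them apart was not tested.

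Among the receptors higher in preparation 2, Ccrl2 differed 1.95-fold (log2 0.96, 0.72 to 1.21 at 95%; edgeR adjusted p = 0.00112). Its lower libraries had 25.3 and 26.0 CPM, its upper ones 46.9 and 53.2 CPM. Ccr7 differed 2.05-fold (log2 1.04, 95% CI 0.44 to 1.64; edgeR adjusted p = 0.0228), by 0.65 between the PBS libraries and 1.53 between the DKK1 libraries on the log2 scale. Its lowest library was DKK1 of preparation 1. Cx3cr1 was 1.56-fold higher (log2 0.64, 95% CI 0.36 to 0.92; edgeR adjusted p = 0.00847), with nearly the same value in PBS (0.62) and DKK1 (0.66). Cxcr4 was 1.31-fold higher (log2 0.39, 95% CI 0.22 to 0.57; edgeR adjusted p = 0.00893).

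Of the receptors lower in preparation 2, Ccr2 differed most, 1.51-fold (log2 -0.60, 95% CI -0.79 to -0.40; edgeR adjusted p = 0.00298). Cxcr2 was 1.29-fold lower (log2 -0.37, 95% CI -0.60 to -0.15; edgeR adjusted p = 0.0266) and Ccr1 1.24-fold lower (log2 -0.31, 95% CI -0.51 to -0.11; edgeR adjusted p = 0.0327). Ccrl2 kept its call in each alternative fit with a test, and Ccr2 in each that used all 4 libraries. The other 5 calls depended on the fit: Ccr1 lost its call with DESeq2 (adjusted p = 0.096), Cxcr4 with scaling to library size only (edgeR adjusted p = 0.0584), Ccr1, Ccr7 and Cxcr2 without the filter on low counts (edgeR adjusted p = 0.0663, 0.115 and 0.0756), and Ccr1, Ccr7 and Cx3cr1 without the treatment term (edgeR adjusted p = 0.0543, 0.0565 and 0.0648).

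**Figure D4:**
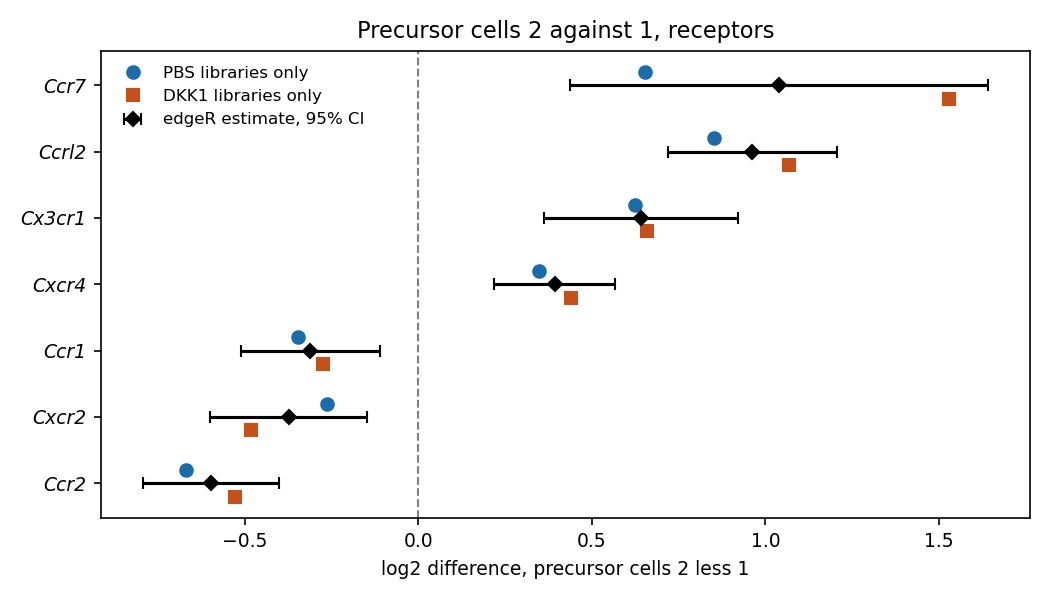
Log2 difference of preparation 2 less 1 for the 7 receptors, with the edgeR estimate and its 95% CI (diamond and bar) and the values within the PBS libraries (circle) and within the DKK1 libraries (square). The 4 receptors higher in preparation 2 lie right of 0 (log2 0.39 to 1.04) and the other 3 left of it (-0.31 to -0.60), with no interval that holds 0.

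Lineage markers differed between the preparations as well, and their counts stand against 33.9% of all genes called, 17.9% higher and 15.9% lower. The 10 neutrophil markers summed to 4975 and 4916 CPM in preparation 1 and 9176 and 9391 CPM in preparation 2. Of these, 9 of 10 were called higher and 0 lower, while Cxcr2 was lower. Retnlg was the 1 not called (log2 0.05; edgeR adjusted p = 0.642). Which of these genes come from cells that carry Cxcr2 was not tested. Of 10 monocyte markers, 5 were called higher and 3 lower in preparation 2. Their sums were 30210 and 30020 CPM in preparation 1 against 22240 and 22840 CPM in preparation 2. Most of each sum was Lyz2, 1 of the 3 called lower, at 24910 and 24780 CPM against 14290 and 14680 CPM. The sums therefore do not give the direction of the list. Of 10 dendritic markers, 5 were called higher and 3 lower. Among the 5, Cd74 (log2 2.14) and the MHC class II gene H2-Ab1 (log2 2.73) were higher in preparation 2, as Ccr7 was. The 3 lower, opposite to Ccr7, were Siglech (log2 -1.54), Flt3 (log2 -1.21) and Cd209a (64 and 78 counts, then 0 and 0). All 10 B cell markers were called lower in preparation 2 (median log2 -3.06), opposite to Ccr7. T and NK markers had 1 of 8 tested called, higher. The part of any lineage in the receptor differences was not tested.

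Ccr1, Ccr2, Ccr1l1 and Ccr3 lie in a cluster on chromosome 9 (GRCm38). Ccr1 lies from 123962124 to 123968692, Ccr3 from 124021972 to 124031689 and Ccr2 from 124101950 to 124113557. Ccr3 differed between the preparations in the direction opposite to Ccr1 and Ccr2. Ccr3, an eosinophil receptor, went from 8.29 and 7.97 CPM to 32.9 and 28.8 CPM (log2 1.92, 95% CI 1.62 to 2.22; edgeR adjusted p = 0.000165). Ccr1l1, with at most 30 counts, was not called (log2 2.01, 95% CI 0.22 to 3.81; edgeR adjusted p = 0.084). With DKK1, the log2 change of Ccr3 was -0.14, with an edgeR adjusted p of 0.969. Transcripts of Ccr1 and Ccr1l1 are 77.5% identical over 1036 bases, and none of the 7 receptors had another model that matched at 95% identity or more (minimum 100 aligned bases, minimum 50% of the shorter model).

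**Figure D5:**
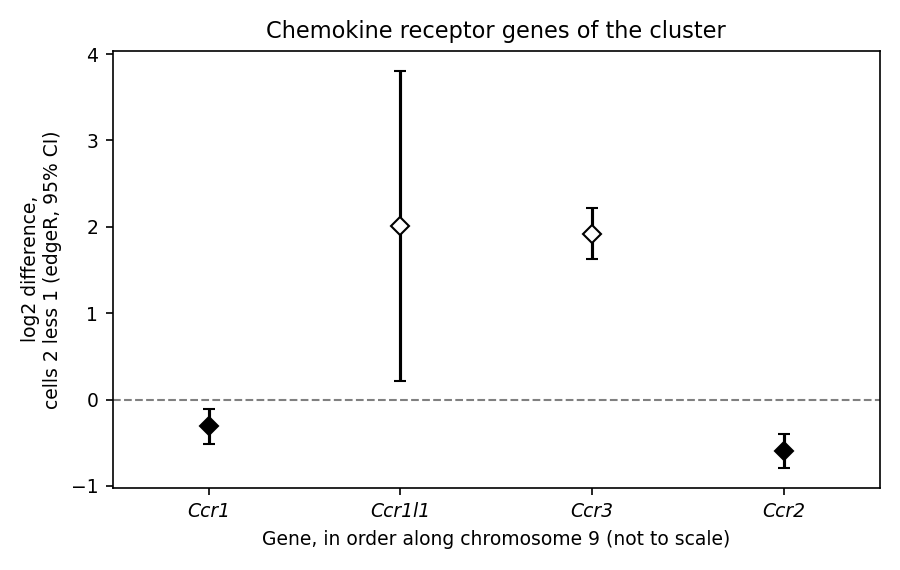
Log2 difference of preparation 2 less 1 (edgeR estimate, 95% CI) for 4 receptor genes in their order along chromosome 9, with filled diamonds for Ccr1 and Ccr2 and open ones for Ccr1l1 and Ccr3. Ccr1 (-0.31) and Ccr2 (-0.60) lie under 0, and Ccr3 (1.92) and the uncalled Ccr1l1 (2.01) above it.

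The other 5 receptors lie outside that cluster. Cx3cr1 lies on chromosome 9 from 119901616 to 120069879 and Ccrl2 on chromosome 9 from 111054486 to 111057519. Cxcr4 lies on chromosome 1 from 128588199 to 128592293, Cxcr2 on chromosome 1 from 74153989 to 74161246 and Ccr7 on chromosome 11 from 99144196 to 99155077. Apart from Cx3cr1, none of the 7 shares exon bases with another gene model.

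Of 18 other chemokine and chemerin receptors, 15 were tested, and 0 passed edgeR's test with DKK1 (0 at an unadjusted p under 0.05, and 0 by DESeq2 and limma-voom). Their median log2 change was -0.04. Cxcr1 (log2 -1.51), a second receptor of Cxcl chemokines, and Xcr1 (log2 0.88), a dendritic cell receptor that is also on the dendritic list, had the smallest p, with an edgeR adjusted p of 0.959 each and at most 58 and 104 counts. Between the preparations 5 of the 15 were called, 3 higher and 2 lower in preparation 2, a share close to the 33.9% of all genes. Cmklr1 was 1 of the higher (log2 0.25).

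Of 20 ligands of the receptors, 18 were tested, and 0 were called with DKK1 by edgeR, DESeq2 or limma-voom, with a median log2 change of -0.04. At an unadjusted p under 0.05, edgeR found 1, limma-voom 2 and DESeq2 0, where 4.47% of all genes had one with edgeR. The 1 found by edgeR was Cxcl1, a ligand of Cxcr2. It had 31.1 and 24.3 CPM in preparation 1 and 4.29 and 2.81 CPM in preparation 2 (log2 -0.41, edgeR adjusted p = 0.959). Ccl3, a ligand of Ccr1, came next (log2 -0.12; edgeR adjusted p = 0.959).

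Between the preparations 14 of the 18 ligands were called (33.9% of all genes), 6 higher and 8 lower in preparation 2 (17.9% and 15.9% of all genes). Ccl5, which binds Ccr1, stood at 42.6 and 44.4 CPM in preparation 1 and 673 and 678 CPM in preparation 2 (log2 3.96; edgeR adjusted p = 1.98e-06). Ccr1 ligands differed in both directions: Ccl3 was higher in preparation 2 as well (log2 0.29), and Ccl9 was lower (857 and 862 CPM against 511 and 529 CPM; log2 -0.73). The Cxcr2 ligands Cxcl1 (log2 -2.97) and Ppbp (log2 -0.48) were lower as Cxcr2 was. Further ligands were named after their values were seen. Of Ccr2 ligands, Ccl2 was lower in preparation 2 (log2 -0.60), Ccl12 was higher (log2 2.06; edgeR adjusted p = 0.000209), and Ccl7 was not called (log2 -0.11; edgeR adjusted p = 0.31). Cx3cl1, the ligand of Cx3cr1, was higher (log2 1.61) at no more than 2.14 CPM. The Cxcr4 ligand Cxcl12 (log2 0.79; edgeR adjusted p = 0.0639) was not called and had at most 5.24 CPM.

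Downstream of the receptors, 28 genes of G protein signalling, desensitization and cell movement were tested. With DKK1, 0 were called by edgeR, DESeq2 or limma-voom, and the median log2 change was -0.02. At an unadjusted p under 0.05, edgeR and limma-voom each found 3 and DESeq2 1, where 4.47% of all genes had one with edgeR. The most abundant were Gnai2, the inhibitory G protein subunit, at 932 to 1010 CPM, the GTPase Cdc42 at 779 to 826 CPM and the blood cell GTPase Rac2 at 553 to 599 CPM, with log2 changes of -0.08, 0.02 and -0.06. Rgs1, which shortens G protein signals from chemokine receptors, had 11.97 and 14.5 CPM in preparation 1 and 12.7 and 25.0 CPM in preparation 2 (log2 0.62; edgeR adjusted p = 0.959). Rac1 stood at 136 and 355 CPM in preparation 1 and 107 and 141 CPM in preparation 2 (log2 0.91; edgeR adjusted p of 0.882). It shares 2309 exon bases with Daglb on the other strand and holds 62.7% of their summed counts, so its own value is uncertain. Between the preparations 15 of the 28 were called, 9 higher and 6 lower in preparation 2, beside 33.9% of all genes.

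Of 19 other chemoattractant and homing receptors, 18 were tested with DKK1, and 0 were called by edgeR, DESeq2 or limma-voom (median log2 change -0.02). At an unadjusted p under 0.05, edgeR and limma-voom each found 2 and DESeq2 0, where 4.47% of all genes had one with edgeR. C5ar1, a complement receptor, was 1 of those found by edgeR (588 to 856 CPM, log2 -0.12, edgeR adjusted p = 0.959). C3ar1 (log2 -0.01) and the integrin chain Itgb2 (log2 -0.02), the other abundant members, were nearly level with DKK1. Of the same 18, 14 were called between the preparations (33.9% of all genes), 9 higher and 5 lower in preparation 2.

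The genes whose log2 CPM pattern over the 4 libraries lay closest to each receptor were sought among 9977 named genes of at least 5 CPM, by Euclidean distance. They were Suv39h1 and Cyp20a1 for Ccr1 (distance 0.0267 and 0.0273 on the log2 scale), Ndufa4 and Akip1 for Ccr2 (0.0575 and 0.0593) and Dedd2 and Pigb for Ccr7 (0.252 and 0.283). For Cx3cr1 they were the haemoglobin gene Hba-a1 and Dtx3 (0.11 and 0.12), for Cxcr2 Ppard and Dohh (0.0329 and 0.0375), for Cxcr4 Slc35f5 and Ptpn18 (0.00936 and 0.0156) and for Ccrl2 Zbtb5 and Tnfsf14 (0.0507 and 0.0515). The 4 libraries come from 2 preparations, and many genes share a difference between them. Ccr7 lay farthest from its nearest gene, and Cxcr4 closest.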

How the data were processed

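RNA from 4 libraries was sequenced. Per the submitters' processing notes the authors used fastp and HISAT2 with mm10. The sources used here name neither the counter nor its annotation. The authors deposited raw counts, as whole numbers for each gene. The FPKM were made by the authors and printed as deposited. The log2 ratios, p-values and FDR in the authors' deposited tables compare 1 library with 1, by a test not stated.

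edgeR 4.0.16 quasi-likelihood (R 4.3.3; TMM, filterByExpr) was fitted to all 4 libraries with preparation and treatment as terms (1 residual degree of freedom). Adjusted p-values are two-sided, Benjamini-Hochberg, over all 17462 genes tested, with a threshold of 0.05. Both comparisons come from this fit. Same-numbered libraries were paired because the labels name 2 mice and number the cells, read as 1 mouse per number, and their deviations correlated at 0.869 across genes. CPM use TMM library sizes, and differences within a pair have a prior count of 2. Alternatives used DESeq2 1.42.0, limma 3.58.1, other scalings and filters.

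The members and lists were chosen with earlier results of these data known. Named genes were the 7 receptors, per list the 2 with the smallest p (none was called) and the 3 most abundant, the 2 most abundant per cell type list, and the 2 nearest patterns. Of the genes so named, 2 are not reported here. Ccr1l1, Gm33858, Daglb, Calcr, Vpreb1, Igll1, Ebf1, Ccl2, Ccl7, Ccl12, Cx3cl1, Cxcl12, Ccl19 and Ccl21a were added after their values were seen. Siglech, Flt3, Cd209a, Cd3d, Cd3e, Cd3g, Retnlg, Itgb3, Nfatc1, Ctsk, Dcstamp and Ocstamp were added in the same way. Positions, exon overlap and BLAST 2.17.0 matches came from GENCODE M21 (GRCm38), where 53706 gene IDs matched and 95 did not. Replicates are 2 mice, and with 1 residual degree of freedom edgeR borrows the spread across genes. The p-values and 95% intervals therefore reflect a spread between these pairs that is shared among genes, and not each gene's own spread alone.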

Additional observations from a re-analysis of the deposited data

Results flagged for a closer look

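For 3 receptors the difference of DKK1 less PBS had opposite signs in the 2 pairs, each pair being 1 library against 1, and the difference between pairs was not tested. Cxcr2 had log2 differences of 0.01 in preparation 1 and -0.20 in preparation 2, which are -0.218 apart. For Cxcr4 they were -0.05 and 0.04, or 0.0918 apart, and for Ccrl2 -0.03 and 0.18, or 0.218 apart. None of these 3 receptors had an unadjusted p under 0.05 for DKK1 with edgeR.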

How the results depend on the processing

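With DKK1, 0 of 7 receptors were called in every fit run. The count over all genes, 9 in the reported edgeR fit, was 46 with DESeq2, 5 with upper-quartile scaling, 3 with library size only, 3 with legacy quasi-likelihood, 2 with limma-voom and 0 with no filter on low counts. Without the replicate block that pairs the libraries it was 0, and 0 to 0 with 1 library left out as well.

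Those fits leave 1 preparation in excess on 1 side, and receptor directions then turned: the log2 change ranged from -0.33 to 0.0125 for Ccr1, -0.05995 to 0.61 for Ccr2, -1.46 to 0.0736 for Ccr7, -0.34 to 0.15 for Cxcr2, -0.23 to 0.20 for Cxcr4 and -0.52 to 0.60 for Ccrl2. The further turned values were -0.0555 for Ccr2 without DKK1 1, and, without PBS 1, 0.0582 for Cxcr2 and -0.254 for Ccrl2. Without PBS 2, Cxcr4 had 0.185. Cx3cr1 stayed negative, from -0.84 to -0.13.

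Between preparation 2 and 1, the receptors called went from 7 to 4 without the filter, where 3509 genes in all were called in place of 5913, and to 4 without the treatment term. With 1 library left out as well, 2 to 5 receptors and 3194 to 4574 genes were called (3346 without PBS 2). No receptor changed direction in this comparison. Library size alone shifted the median of all genes to -0.174, with 2196 genes called higher and 4193 lower in place of 3129 and 2784, and 3 receptors called higher and 3 lower. For DKK1 against PBS, summing Cx3cr1 with Gm33858 changed no direction or call, and other prior counts changed no direction within a pair. Neither was run between the preparations. Per kb of union exons, the mean of Cxcr4 was 46.5 in place of 41.6. Each treatment had 2 libraries, which limits the precision of every change given. The causes were not tested.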
